A study of Mus musculus with 38 samples.

Results

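The 10 genes described here build, coat, open or feed the lipid droplet of the fat cell: Plin1, Plin4, Cidec, Pnpla2, Lipe, Mgll, G0s2, Aqp7, Fabp4 and Lpl. They were taken by name from the gene names of the arrays, and every non-control probe that carried 1 of these names was kept, which gave 16 probes for 10 genes out of 40628 probes and 29411 gene names. Plin1, Plin4, Cidec, G0s2 and Aqp7 had 1 probe each, Pnpla2, Lipe, Mgll and Lpl had 2 each, and Fabp4 had 3. Where a gene had several probes, the one of highest mean level stood for the gene and the others are described where they differed. A level is the log2 of the processed signal minus the log2 of that array's 75th percentile, so that 0 stands for that percentile and a step of 1 for a factor of 2.

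Fat cells store triglyceride in a droplet with a coat of proteins. Plin1, perilipin 1, is the coat protein through which hormones open the droplet to lipases, Plin4 is a perilipin of small and nascent droplets, and Cidec joins small droplets into large ones. Lipolysis removes the fatty acids of triglyceride in turn: Pnpla2 (adipose triglyceride lipase) takes the first, Lipe (hormone-sensitive lipase) the second and Mgll (monoglyceride lipase) the last, while G0s2 is a small inhibitor of Pnpla2. The glycerol left over leaves through the channel Aqp7, the fatty acids are carried in the cytosol by Fabp4, and Lpl, lipoprotein lipase, releases fatty acids from circulating lipoproteins at the capillary wall for uptake. Several of these genes are not private to the fat cell. Macrophages are known to express Lpl and Fabp4, and capillary endothelium is known to express Fabp4 and Aqp7.

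The RNA came from stromal vascular cells, the cells left once floating fat cells are removed, of the epididymal fat of C57BL/6J mice, labelled as epididymal infiltrating macrophages. From weaning at 3 to 4 weeks of age the mice ate 1 of 5 diets: LFC, a low fat diet with 10% of its energy from fat (10 arrays); HFC, a high fat, high sucrose diet with 60% from fat (10 arrays); or the HFC diet with a dose of 5, 20 or 75 µg of KAL-1, a botanical formulation, in the groups HF5, HF20 and HF75 (6 arrays in each). The LFC and HFC courses began at day 6, went on to day 10 and day 14 (D6, D10, D14) and then ran from W0 to W18 in steps of 3 weeks, and the formulation groups from W3 to W18, always with 1 array per diet and time point. Whether an array holds RNA of 1 animal or of several is not given in the sources used here. In the diet comparisons each p-value therefore measures the spread between arrays of different time points. In the week comparisons it measures the spread between the arrays of the 5 diets within a week. The permutation p-values of the correlations treat each array as a separate observation, and the number of arrays limits the precision throughout. At W15 and W18 the diet labels of HF5 and HF20 are exchanged, so these 4 arrays were grouped by title and source name.

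The 75th percentile of the processed signal ranged from 25.8 on HF5 W12 and 88.4 on HF75 W3 to 1983 on HFC W0, and between 40.1% and 91.6% of probes lay well above background on an array. Of 9 fat cell marker genes (Adipoq, Retn, Cfd, Lep, Slc2a4, Pparg, Cebpa, Adrb3, Thrsp), 8 were well above background on all 38 arrays, as were 10 of 11 macrophage markers. Of these fat cell markers, Adipoq, Retn, Adrb3 and Thrsp were saturated on 4 arrays each, Cfd on 9 and Slc2a4 on 1. A saturated value sits at the scanner's ceiling, so a high mean of these markers is partly a lower bound. The mean level of the fat cell markers was 4.79 to 5.03 on the W9 arrays of LFC and HFC and the W12 arrays of LFC and HF75, and −1.43 to 3.13 on the other 34 arrays. On those 4 arrays the macrophage markers had mean levels of 1.43 to 2.49, within their range of −0.28 to 3.27 on the others. In such samples fewer cells of a type and less RNA per cell cannot be told apart. These 4 arrays were picked as those on which Plin1, Plin4 and Cidec were all saturated, and they are also the 4 of highest fat cell marker level. They are named by that level below, and the dose comparisons and those at W6, W9 and W12 are also given without them.

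All 16 probes were well above background on all 38 arrays, except the 2 Lipe probes, which were so on 37. The upper end was the limit instead. A saturated spot cannot report a higher amount, and 102 values of these probes were saturated, at intensities of 54717 to 82122 with a median of 63348. Since that ceiling is fixed, the scaled level of a saturated spot mainly tracks how bright the whole array was, and each such level is a lower bound. On the 4 arrays of highest fat cell marker level, 7 of the 10 genes were saturated, and on any other array 0 to 2 were.

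The probes of a gene could differ in how often they were saturated. Printed here are 5 probes of Fabp4, Lipe and Pnpla2, 5′ to 3′ as deposited, with G and C in capitals. Fabp4 was the gene most often at the ceiling: its first and second probes were saturated on 34 of 38 arrays, while the third was saturated on 3. The second probe lies near the end of the Fabp4 coding sequence and the third near its start. The 2 Lipe probes and the second Pnpla2 probe were never saturated, so they give measured rather than bounded levels on the 4 arrays of highest fat cell marker level.
Fabp4, the second probe: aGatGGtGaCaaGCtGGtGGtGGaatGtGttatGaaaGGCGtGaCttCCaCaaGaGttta
Fabp4, the third probe: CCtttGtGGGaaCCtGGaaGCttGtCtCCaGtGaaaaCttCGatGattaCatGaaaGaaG
Lipe, the first probe: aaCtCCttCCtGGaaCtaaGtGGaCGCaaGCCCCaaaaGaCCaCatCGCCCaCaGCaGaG
Lipe, the second probe: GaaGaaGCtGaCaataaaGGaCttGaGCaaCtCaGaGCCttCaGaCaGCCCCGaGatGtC
Pnpla2, the second probe: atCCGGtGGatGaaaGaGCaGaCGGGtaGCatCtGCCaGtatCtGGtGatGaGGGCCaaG
The 5 probes are 60 bases long with 43.3% to 55% G and C. Probes of one gene ran together to different degrees over the 34 other arrays: Pearson's r was 0.92 between the 2 Lipe probes (33 arrays with both) and between the 2 Mgll probes, 0.87 between the 2 Lpl probes, 0.65 between the 2 Pnpla2 probes, and 0.33 between the first and the third Fabp4 probe. The first Fabp4 probe is therefore given as a bound, and the third, a choice made after its values were seen, is shown beside it.

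**Figure D1:**
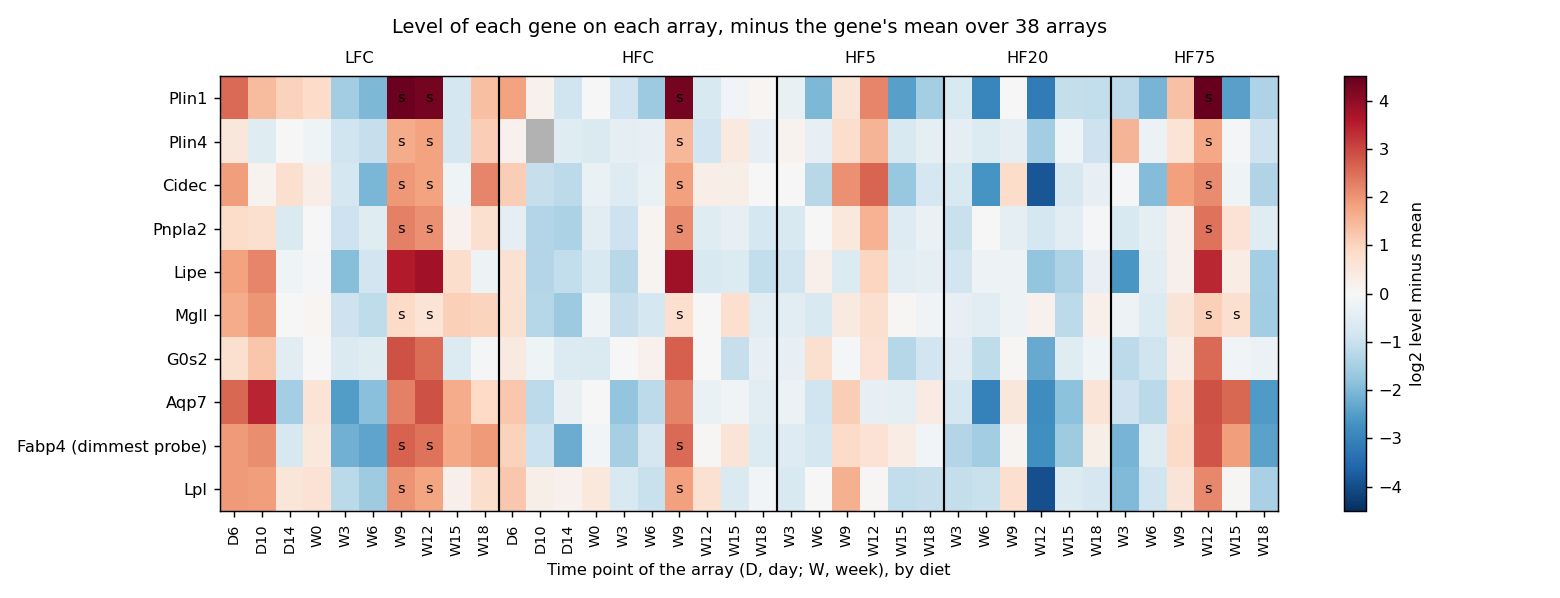
Level of each gene on each of the 38 arrays, as the log2 difference from that gene's own mean, with the arrays ordered by diet and time along the x axis, 1 row per gene (Fabp4 by the third, dimmest probe) and an s on saturated values. The W9 arrays of LFC and HFC and the W12 arrays of LFC and HF75 form 4 columns that are high in nearly every row, and HF20 W12 is the lowest array for Plin1, Plin4, Cidec, G0s2, Lpl and the third Fabp4 probe.

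Of the coat genes, Plin1 had LFC levels that ran from −0.96 at W6 through a median of 2.23 to at least 5.46 at W9; the D6 array gave 3.60 and the W12 array at least 5.36. On HFC they ran from −0.61 at W6 through a median of 0.99 to at least 5.35 at W9, with 2.84 at D6 and only 0.36 at W12. LFC and HFC arrays thus overlapped over almost the whole range, and both had their lowest value at W6. On HF5 the Plin1 level ran from −1.42 (W15) through a median of 0.11 to 3.23 (W12), on HF20 from −2.12 (W12) through −0.05 to 1.05 (W9), and on HF75 from −1.41 (W15) through −0.24 to at least 5.66 (W12). The order of the medians was LFC, HFC, HF5, HF20, HF75, but the SD within a diet was 1.27 to 2.70, larger than every step between neighbours in that order. The LFC and HFC medians also hold 4 early time points that the formulation groups lack.

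Plin4 and Cidec are the other coat genes. Plin4 levels ran from 2.35 on HF20 W12 through a median of 3.55 to at least 5.74 on LFC W12 over 37 arrays, the HFC D10 spot being an outlier. Cidec ran from −0.31 on HF20 W12 through 3.43 to 6.15 on HF5 W12, the dimmest array. Cidec on LFC W18 was 5.74, and on HF5 W9 and HF75 W9 it was 5.60 and 5.37, within or above the saturated values of 5.36 to 5.66 on the 4 arrays named above. For Cidec, whose spot was at its ceiling there, these 4 arrays could not be separated from the next highest. For Plin1 they could: the lowest of the 4 was at least 5.35 and the highest of the other 34 was 3.60, on LFC D6. Since saturation of Plin1 was part of how the 4 were picked, this gap is a description only.

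The lipase genes could be read through unsaturated probes. The Lipe level was 2.97 on LFC W9, 3.19 on LFC W12, 3.21 on HFC W9 and 2.80 on HF75 W12, and the next highest array was LFC D10 at 1.61. Over all 38 arrays the median Lipe level was −1.01, and the lowest value, −3.21 on HF75 W3, was not well above background. The second Pnpla2 probe gave 4.51, 4.08, 5.00 and 4.56 on the same 4 arrays in that order, against 2.26 on the next highest, LFC D6. G0s2, the inhibitor of Pnpla2, gave 3.63, 3.28, 3.42 and 3.30, against 2.003 on LFC D10. The 2 lipases that take the first and the second fatty acid, and the inhibitor of the first, were thus all highest on the same 4 arrays. Mgll, the third lipase, was measured at 6.56 on LFC D10 and 6.26 on LFC D6 by its first probe. On the 4 arrays that probe was at its ceiling, at no less than 5.19 to 5.66, so by it these arrays could not be ranked against LFC D10 and D6. The second Mgll probe was unsaturated on HF75 W12, at 5.46, below LFC D10 (6.06) and LFC D6 (5.58). On LFC W9, LFC W12 and HFC W9 it was saturated too.

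Aqp7, the glycerol channel, had no saturated value and spanned 87.7-fold, from −4.11 on HF20 W6 to 2.35 on LFC D10, with a median of −1.34. It ranged from 1.16 (HFC W9) to 1.79 (HF75 W12) on the 4 arrays of highest fat cell marker level, which LFC D10 (2.35), LFC D6 (1.52) and HF75 W15 (1.53) reached or passed. Fabp4 by its first probe was a bound on 34 arrays, the lowest being at least 4.97 on HFC W0, and the measured level on HF5 W12, the dimmest array, was 10.31. By the third probe Fabp4 ran from 0.05 on HF20 W12 through 2.76 to 5.62 on HF75 W12, with 4.70 on LFC D6, 4.89 on LFC D10 and 4.70 on HF75 W15. Lpl by its first probe ran from −0.45 on HF20 W12 through 3.55 to at least 5.66 on HF75 W12, and on LFC D6 and D10 it was 5.42 and 5.38. The second Lpl probe set the arrays apart: it was at least 5.39 on the 4 arrays of highest fat cell marker level. The next highest was LFC D10 at 3.66. On HF75 W15 Plin1 was −1.41, among its lowest values, while Aqp7 and the third Fabp4 probe were near their highest. The capillary marker genes (Pecam1, Cdh5, Kdr, Tek, Tie1, Esam, Emcn, Gpihbp1) had a mean level of 3.03 on that array and 3.31 and 4.69 on LFC D6 and D10, within a range of 0.14 to 4.69.

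**Figure D2:**
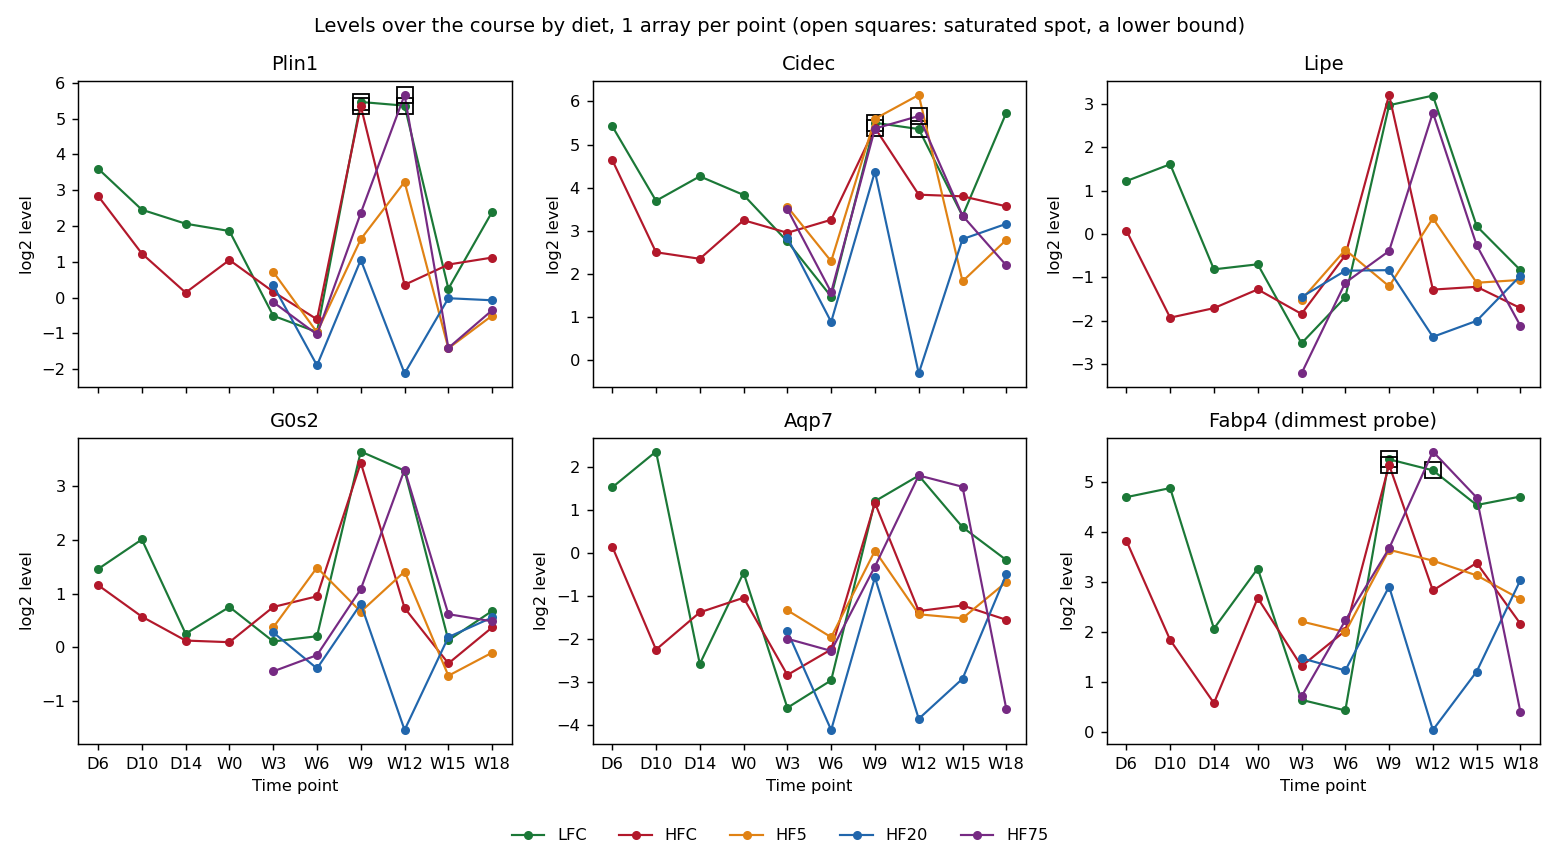
Log2 level (y axis) of Plin1, Cidec, Lipe, G0s2, Aqp7 and Fabp4 by the third, dimmest probe at each time point (x axis), 1 array per point and 1 line per diet, with open squares around saturated values that are lower bounds. The diets cross repeatedly. For Plin1, Lipe, G0s2 and Fabp4 the highest plotted values are those of LFC and HFC at W9 and of LFC and HF75 at W12. For Cidec HF5 has the highest plotted value at both weeks (5.60 and 6.15), and for Aqp7 the highest is LFC at D10 (2.35).

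The comparison of HFC with LFC asks what a high fat, high sucrose diet does to these genes in the cells around the fat cells. With the time point as a block, all 10 genes had a mean difference below 0, from −0.37 for Plin4 to −1.10 for Lipe, with a median of −0.74 against 0.01 over all 31203 probes tested. None of the 10, and none of all the probes tested (0%), passed an adjusted p of 0.05 (limma, Benjamini-Hochberg; the smallest adjusted p of the genes was 0.547). At an unadjusted p under 0.05, 4 of the 10 were lower in HFC, where 4.5% of all probes were. The genes share arrays, so these are not 4 separate observations.

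The 4 were Pnpla2, with a log2 difference of −0.88 (SE 0.30, unadjusted p = 0.0126 by limma), lower in HFC at 8 of 10 time points; Mgll, −0.84 (SE 0.31, p = 0.0205 by limma), lower at 9 of 10; Fabp4 by its first probe; and Lipe, −1.10 (SE 0.50, p = 0.047 by limma), lower at 7 of 10. The first Fabp4 probe was saturated on both arrays at 9 of 10 time points, so its difference is not read as one of expression: it was −0.63 (SE 0.26, p = 0.0301 by limma) and 0.053 with array brightness as a covariate. Without it 3 genes remain in the count. The third Fabp4 probe, saturated on both arrays at 1 time point, had a difference of −0.99 (SE 0.42, p = 0.0373 by limma). The second probes of the lipase genes gave −0.60 for Pnpla2 (SE 0.45, p = 0.207 by limma), lower at 6 of 10, −0.54 for Lipe (SE 0.42, p = 0.227 by limma), lower at 5 of 9, and −0.91 for Mgll (SE 0.32, p = 0.016 by limma), lower at 9 of 10. The other genes had intervals that reached past 0: Plin1 −0.94 (95% interval −1.99 to 0.11), Aqp7 −1.03 (−2.17 to 0.12), Cidec −0.59 (−1.36 to 0.19), Lpl −0.48 (−0.97 to 0.01), G0s2 −0.46 (−1.09 to 0.17) and Plin4 −0.37 (−1.17 to 0.42). These intervals do not show that the diets were alike for any of them.

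Single time points weighed heavily. The Plin1 difference at W12 was −5.01, between a saturated LFC array and an HFC array at 0.36, and without W12 the mean of Plin1 was −0.49. The same time point took Lipe from −1.10 to −0.73, G0s2 from −0.46 to −0.23 and Plin4 from −0.37 to −0.08, and without D10 the mean of Aqp7 went from −1.03 to −0.63. At D10 the difference was −4.59 for Aqp7, −3.54 for Lipe and −3.26 for Mgll. On the LFC and HFC arrays of D10 the capillary markers had mean levels of 4.69 and 0.82, the brown fat markers 2.68 and −3.06, and the epididymis markers −6.86 and 3.90. At D6 the brown fat markers were at 2.19 and −2.10. The part of these markers in the differences was not tested. The fat cell markers differed too: at W12 their mean level was 4.79 on LFC and 1.13 on HFC, and with that mean level as a covariate the Plin1 difference was −0.03, Cidec −0.06, Lipe −0.22, Pnpla2 −0.35 and Mgll −0.58, and those of Plin4 and G0s2 turned to 0.14 and 0.03. The marker level is itself partly a lower bound, and its part in the difference was not tested beyond that. No gene's difference moved with time in either direction past the threshold (0% of 31203 probes passed); the slopes of the 10 genes lay between −0.04 and 0.06 per week, and at an unadjusted p under 0.05 the count of these genes was 0.

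**Figure D3:**
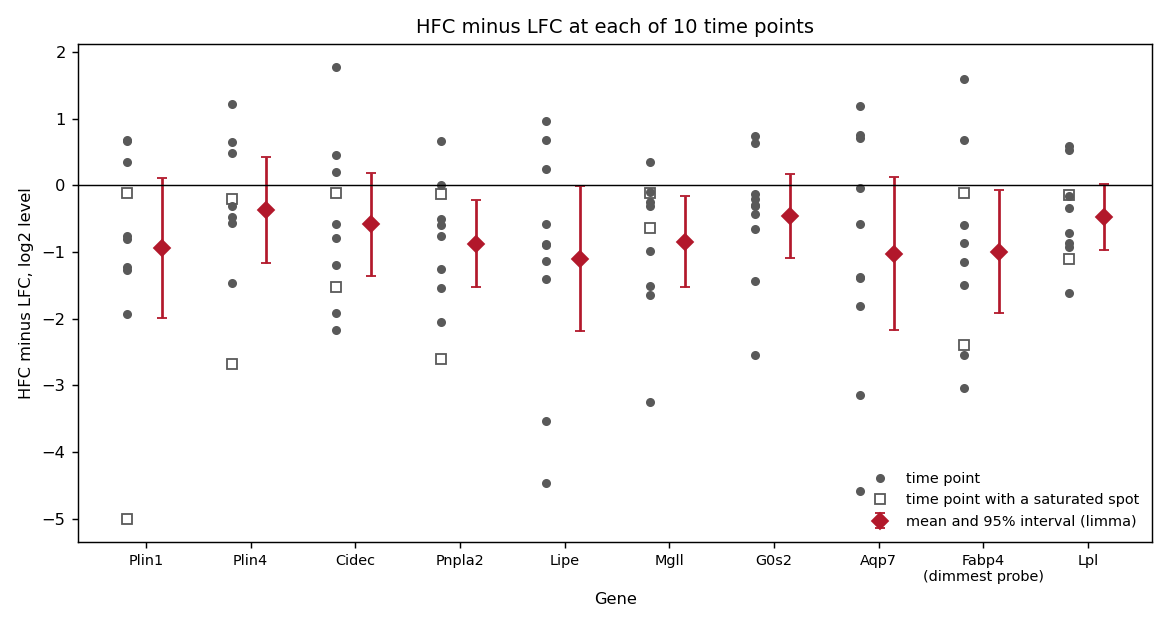
HFC minus LFC in log2 level (y axis) for each gene (x axis), 1 point per time point, with the mean and its 95% interval from the limma fit; open squares mark time points with a saturated spot, and Fabp4 is shown by the third, dimmest probe. The mean of every gene lies below 0, from −0.37 to −1.10, and points of every gene lie on both sides of 0.

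The formulation groups ask whether KAL-1, given on the high fat diet, moved these genes from their HFC levels over W3 to W18. Here the block of time points does not absorb the scan day. HF20 was scanned on another day than HFC at W3, W9 and W18, HF75 at W3, W6, W9 and W18, and HF5 at W9. At those weeks dose and scan day cannot be told apart. In each of the 3 doses, and in their mean, 0 of the 10 genes and 0 of 33780 probes (0%) passed an adjusted p of 0.05 in limma. At an unadjusted p under 0.05 the count was 0 of 10 in HF5 (4.79% of all probes), 1 of 10 in HF20 (1.6%), 0 of 10 in HF75 (2.02%) and 0 of 10 for the mean of the doses (1.81%). The gene in HF20 was Cidec, with HF20 levels of 2.84, 0.89, 4.37, −0.31, 2.81 and 3.16 at W3 to W18 against HFC levels of 2.95, 3.25, 5.39 (a bound), 3.84, 3.80 and 3.57. HF20 was below HFC in all 6 weeks, by 0.11 to 4.15, and the fitted difference was −1.51 (SE 0.68, unadjusted p = 0.0376 by limma). The ranges of the 2 groups still overlapped.

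In HF20 the other coat and uptake genes lay on the same side without passing: Plin1 −1.67 (95% interval −3.53 to 0.19), Lpl −1.12 (−2.41 to 0.16), G0s2 −1.002 (−2.23 to 0.22), Aqp7 −0.95 (−2.58 to 0.67) and Lipe −0.85 (−2.47 to 0.77). Single weeks carried much of this: without W9 Lipe was −0.22, and without W12 Lpl was −0.42 and Cidec −0.98 (unadjusted p = 0.0661 by limma). Without the 4 arrays of highest fat cell marker level, Cidec was −1.60 (unadjusted p = 0.0418 by limma), Plin1 −1.18, Lpl −1.10, Aqp7 −0.72, G0s2 −0.63 and Lipe −0.18. In all, 9 of 10 genes had a mean below 0 in HF20, with a median of −0.90 against 0.04 over all probes. HF20 W12, the lowest array for Plin1, Plin4, Cidec, G0s2 and Lpl, also had the lowest mean level of the fat cell markers (−1.43), the capillary markers (0.14) and the macrophage markers (−0.28). In HF5 and HF75 the 10 genes split 5 to 5, with medians of 0.01 and −0.01. Plin1, for instance, was −0.77 in HF5 (−2.63 to 1.09) and −0.37 in HF75 (−2.22 to 1.49), but −0.18 and 0.16 without W9, −1.50 in both without W12 (unadjusted p = 0.0239 and 0.0236 by limma), and −0.28 and −0.79 without the 4 arrays. For Plin1 in HF5 and HF75 the interval reaches more than a log2 unit on either side of 0, so a difference of that size in either direction lies within it. The HF20 intervals given above reach below −2 and end between 0.16 and 0.77. The 3 doses share the HFC arrays, and their differences are given side by side only.

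The time points differed more than the diets. In the fit of all 5 diets over W3 to W18, 6 of the 10 genes differed among the weeks at an adjusted p under 0.05 (limma F-test), where 41.2% of all 33780 probes did. These were Plin1 (adjusted p = 0.0083), Cidec (0.0188), Pnpla2 (0.0337), Mgll (0.0356), Lpl (0.0438) and Aqp7 (0.0464). Lipe (0.0518), G0s2 (0.0847), Plin4 (0.199) and Fabp4 by its bounded probe (0.450) did not pass in limma, whereas the third Fabp4 probe had an adjusted p of 0.0267. Without the 4 arrays of highest fat cell marker level, the count was 0 of 10, and without W9 and W12 it was also 0. The 4 arrays were picked by values of Plin1, Plin4 and Cidec, so the first of these counts is a description only.

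At W6, 4 of the 10 genes fell below the mean of the other weeks, where 15.8% of all probes did. They were Plin1 by 2.29 (SE 0.76, adjusted p = 0.0294 by limma), Cidec by 1.91 (SE 0.58, 0.018), Aqp7 by 1.78 (SE 0.67, 0.0499) and Mgll by 0.83 (SE 0.31, 0.0496). The Plin1 levels at W6 were −0.96 (LFC), −0.61 (HFC), −0.97 (HF5), −1.90 (HF20) and −1.03 (HF75), all below the median of their own diet. Cidec at W6 was 1.47, 3.25, 2.29, 0.89 and 1.57 in that order. Lipe and Pnpla2 had no such dip, with differences of −0.25 and −0.30. The fat cell markers were at −0.40 to 0.79 on the 5 arrays of W6 and the capillary markers at 0.55 to 2.30. The skeletal muscle markers were at 1.04 to 4.53 there, against a median of −2.05 over all arrays, and the epididymis markers at −8.52 to −1.79, against −2.36. Their part in the dip was not tested. Without the 4 arrays of highest fat cell marker level, Plin1 (−1.66, adjusted p = 0.0253 by limma) and Cidec (−1.78, 0.0278) passed and Aqp7 and Mgll did not. Without the LFC arrays none of the 4 passed, without the HFC or the HF5 arrays only Cidec did, without the HF75 arrays only Aqp7 did, and with the fat cell marker level as a covariate the Plin1 and Cidec differences were −0.43 and −0.80 and did not pass.

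At W9, 3 of the 10 genes rose above the mean of the other weeks, where 0.85% of all probes did: Plin1 by 2.83 (SE 0.76, adjusted p = 0.0401 by limma), Cidec by 2.11 (SE 0.58, 0.043) and Lpl by 1.93 (SE 0.53, 0.0427). The median of the 10 genes was 1.55 higher at W9, against −0.09 over all probes. Lpl at W9 was at least 5.50 on LFC and 5.35 on HFC, and 5.10, 4.27 and 4.09 on HF5, HF20 and HF75. Plin1 at W9 was at least 5.46 and 5.35 on LFC and HFC, and 1.63, 1.05 and 2.36 on the formulation arrays, each the highest or second highest of its diet. The LFC and HFC arrays of W9 were on another scan day and other slides than the 3 formulation arrays, so at that week saturation and scan day cannot be told apart between these sets.

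The W9 calls depended on the arrays kept. Their adjusted p ranged from 0.0325 to 0.633 for Plin1, 0.0228 to 0.538 for Cidec and 0.0344 to 0.561 for Lpl over 16 alternatives. Without the LFC arrays, the HFC arrays, the HF5 arrays or the HF20 arrays, 0 of the 10 genes passed. Without the 4 arrays the differences were 2.05 for Plin1 (adjusted p = 0.0911 by limma), 2.47 for Cidec (0.068) and 2.05 for Lpl (0.052), so that the size held for Cidec and Lpl while the call did not. The fat cell markers at W9 had mean levels of 1.25 to 5.03, and with them as a covariate the differences were 0.38, 0.65 and 0.52.

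At the other weeks no gene of the 10 passed. At W3, 0 of 10 passed (4.83% of all probes were lower), with the largest differences in the third Fabp4 probe (−1.77), Lipe (−1.75) and Pnpla2 (−1.13). At W12, 0 of 10 passed (16.9% of all probes were higher) although Plin1 was 2.02 above the other weeks; its 5 levels ran from −2.12 on HF20 to at least 5.66 on HF75. Without the 4 arrays of highest fat cell marker level the Plin1 difference was 0.30 and the count again 0 of 10. Without the HF20 arrays 4 of the 10 genes passed at W12, and without the HFC arrays 2 did. Leaving out each diet in turn, 1099 to 7048 of all probes passed at W12. At W15 and W18 the count was 0 of 10, and 0.00296% and 0.329% of all probes passed in either direction. At an unadjusted p under 0.05, limma counted 3 of the 10 genes at W3, 4 at W12, 0 at W15 and 0 at W18. Over all 33780 probes the same count was 9269, 11106, 4841 and 4005 in that order.

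The 10 genes did not form a single block across the arrays. Over the 34 arrays other than the 4 of highest fat cell marker level, which stand apart as a cluster, Pearson's r between pairs ran from 0.18 (Plin4 and Lipe, 33 arrays) to 0.89 (Aqp7 and the third Fabp4 probe). Plin1 and Cidec had an r of 0.86 and Mgll and the third Fabp4 probe 0.85, while Plin1 and Pnpla2 had 0.40. All pairs share the scaling value of each array, and these coefficients are descriptions.

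Set against the marker lists, the genes divided in the same way. Of 30 relations computed over the 34 arrays (10 genes, 3 lists), the fat cell list had its closest relation with Cidec (Pearson's r = 0.94, Spearman's rho = 0.94) and Plin1 (0.89 and 0.86), each with a two-sided permutation p of 1e-05, the smallest that 100000 resamples can give, and adjusted p of 3.3e-05. For the same 2 genes the capillary list gave r of 0.42 (rho 0.42, permutation p = 0.014, adjusted 0.022) and 0.40 (rho 0.31, permutation p = 0.019, adjusted 0.029). Lpl, Plin4 (33 arrays) and G0s2 lay on the same side, with r of 0.81, 0.66 and 0.66 for the fat cell list. The capillary list gave them 0.58, 0.17 and 0.48. The order was the other way for the third Fabp4 probe, with 0.75 (rho 0.79) for the fat cell list and 0.87 (rho 0.85) for the capillary list, for Lipe, with 0.62 (rho 0.63) and 0.82 (rho 0.73), for Mgll, with 0.64 (rho 0.70) and 0.77 (rho 0.74), and for Pnpla2, with 0.58 (rho 0.56) and 0.67 (rho 0.69). For Aqp7 the order turned with the coefficient, r being 0.72 and 0.76 and rho 0.77 and 0.71. Whether the paired coefficients of a gene differ was not tested. The 2 lists themselves had an r of 0.57.

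Without the 2 arrays farthest from the median of the list, r was 0.93 for Cidec and 0.86 for Plin1 with the fat cell list and 0.86 for the third Fabp4 probe and 0.74 for Lipe with the capillary list. Within time points, which also holds the scan day of LFC and HFC constant, these 4 coefficients were 0.95, 0.87, 0.89 and 0.90. For Mgll the order of the fat cell and capillary lists turned without the 2 farthest arrays (0.70 and 0.68). For Pnpla2 it turned within time points (0.76 and 0.73). The macrophage list had its closest relation with Lpl (r = 0.55, rho 0.43, permutation p = 0.00074, adjusted 0.0013), which fell to 0.34 without the 2 farthest arrays and was 0.49 within time points. For Mgll and Pnpla2 the macrophage list gave r of 0.01 and 0.06.

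**Figure D4:**
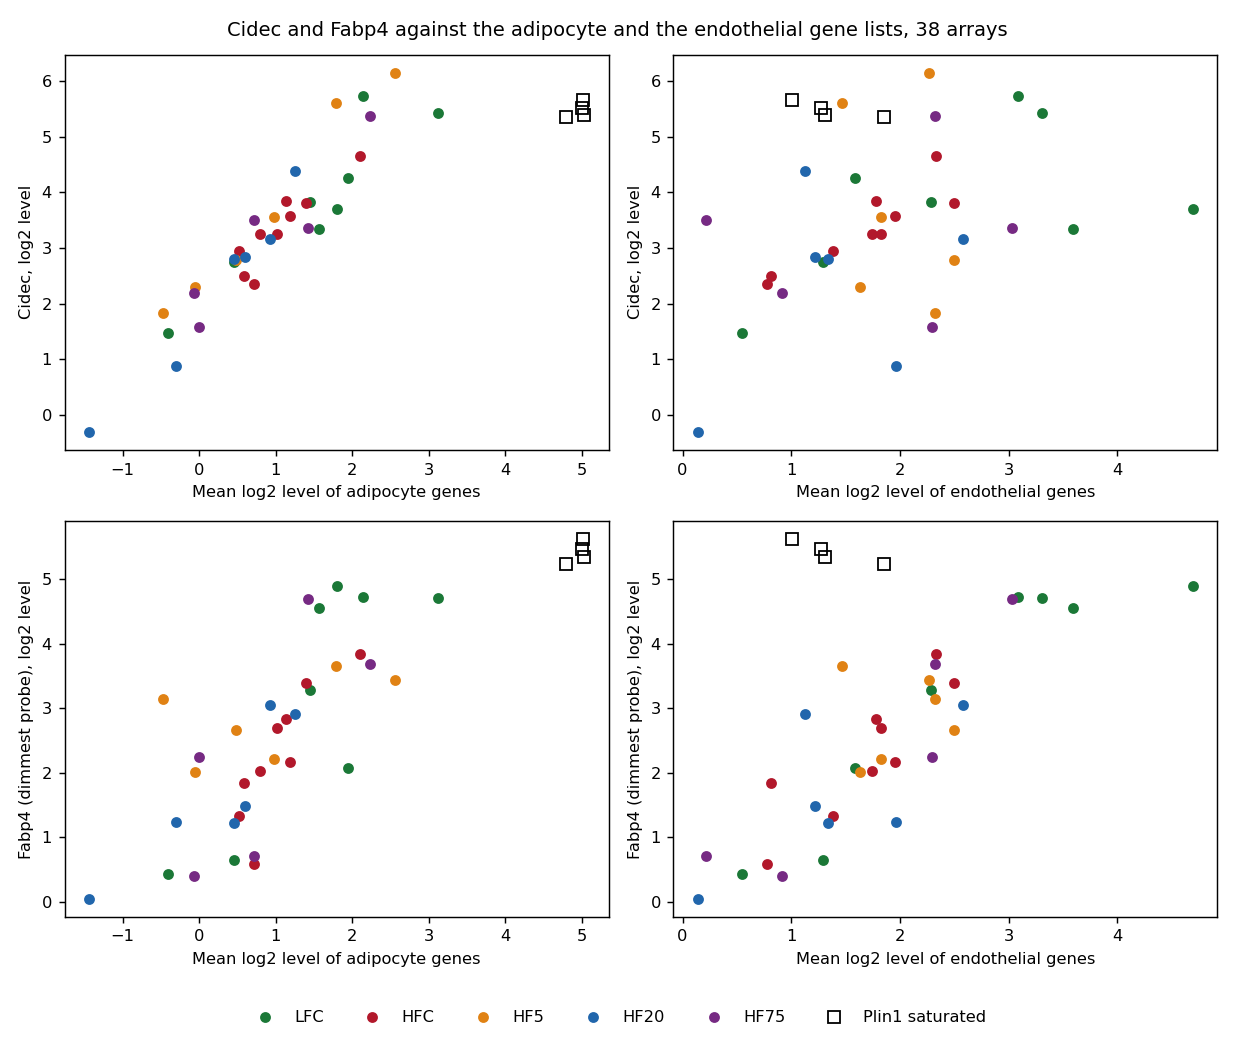
Log2 level of Cidec and of the third Fabp4 probe (y axes) against the mean log2 level of the fat cell and the capillary marker genes (x axes), 1 point per array, coloured by diet, with open squares on the arrays where Plin1 was saturated. Over the other 34 arrays r was 0.94 and 0.42 for Cidec and 0.75 and 0.87 for Fabp4.

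Other genes of the droplet and of lipolysis, 36 in all and every one of them measured, were listed by role: synthesis enzymes, further coat proteins, receptors and carriers. Between HFC and LFC 0 of 36 passed, 32 had a mean below 0 and 4 above, with a median of −0.45; the 3 of smallest p were Pnpla3, a relative of Pnpla2 (−1.43), Cidea, a droplet protein of brown fat (−2.11), and Gpd1, which makes the glycerol backbone (−1.09). In the formulation groups 0 of 36 passed in each, and the 3 of smallest p were Ffar4, Ptrf and Bscl2 in HF5 (−1.46, 0.78 and −0.82), Fabp5, Adrb3 and Dgat2 in HF20 (−1.40, −1.75 and −0.78), and Plin3, Lipa and Acsl1 in HF75 (0.39, −0.70 and 0.73).

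Among the weeks, 22 of the 36 differed (limma F-test, 41.2% of all probes), led by Dgat2, which adds the last fatty acid of triglyceride, the coat gene Plin5 and Cideb. At W6, 11 of 36 fell (15.8% of all probes), among them Cideb by 3.42, Plin5 by 2.90, Gyk, glycerol kinase, by 2.34, Acsl1 by 2.21 and Dgat2 by 1.88. In that week 1 of 36, Fitm1, a droplet gene of skeletal muscle, rose by 3.26, where 3994 of 33780 probes rose. On LFC W6 the skeletal muscle markers had their highest mean level, 4.53. At W9, 3 of 36 rose (0.85% of all probes): Adrb3, the adrenergic receptor of fat cells, by 3.15, Dgat2 by 1.57 and Dgat1 by 1.46. At W12, 11 of 36 rose (16.9% of all probes), among them Ffar4, a fatty acid receptor, by 3.06, and Cidea by 2.49. HF5 W12 had the highest mean level of the brown fat markers, 4.49, a list that holds Cidea. At W3, 1 of 36, Plin5, rose by 1.79, where 1271 of 33780 probes rose. Cd36, a fatty acid transporter, Dgat1 and Plin2 fell by 1.86, 1.43 and 1.26 (4.83% of all probes fell), and at W15 and W18 0 of 36 passed.

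The genes whose pattern over the 38 arrays was most like the mean of the 10 were looked up among 24476 probes well above background on at least 50% of the arrays. They were Adipoq, which encodes adiponectin (r = 0.94), LOC100047653 (0.93), Pparg (0.93), Adrb3 (0.92), A530016L24Rik (0.91), A530053G22Rik (0.91), Chpt1 (0.90), Gm5144 (0.90), Ifi27l1 (0.90) and Pck1 (0.90). Adipoq, Pparg and Adrb3 are in the fat cell marker list. These coefficients rest in part on the 4 arrays of highest fat cell marker level; over the other 34 arrays they were 0.82 to 0.90.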

How the data were processed

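Stromal vascular cell RNA was labelled with Cy3 by T7 amplification and hybridised to a 1-colour Agilent mouse array. Per the file headers, the deposited values are scanner intensities from Agilent Feature Extraction 10.5.1.1 on design build mm9 (the submitters' processing notes name version 9.1); the processed signal used here is already background-subtracted by the authors' software, and no normalization between arrays had been applied. A deposited table of the authors' own log ratios against LFC was not used. Control spots and outlier-flagged spots were left out, spots of 1 probe were averaged, and log2 of the deposited signal minus the log2 of each array's 75th percentile was taken as the level. Saturated values were kept and are lower bounds. Probes well above background on at least 50% of the arrays of a diet were tested.

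Tests used limma 3.58.1 (lmFit, eBayes, two-sided, Benjamini-Hochberg over all probes tested, threshold 0.05) in R 4.3.3: HFC against LFC over 20 arrays with the time point as a block, and the 5 diets of W3 to W18 over 30 arrays with time point and diet as terms. At every time point both arrays of this pair were scanned on the same day, which the block therefore absorbs. The pairing comes from the time point alone, as the labels number no replicates within a diet and time. Correlations were tested with 100000 permutations (scipy 1.17.1, numpy 2.4.6, pandas 2.3.3, Python 3.11.15) and figures drawn with matplotlib 3.10.9. Background correction, scaling, filter, block, slide, covariates, the methods' t-test and left-out arrays were varied as alternatives. The limma fits were also run on simulated levels, in which 100 probes were changed by each of 1 and 2 log2 units. Of these, 47% and 83% were recovered for HFC against LFC, and 14% and 55% for HF20 against HFC. For W9 against the other weeks 26% and 74% were recovered. The other comparisons, the correlations and the remaining steps were not simulated.

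All 10 genes are named, each by its probe of highest mean level. Of the 36 other pathway genes, those past the threshold are named (at most 8 of smallest p per comparison) or else the 3 of smallest p, and the 10 genes of most similar pattern are those of highest Pearson's r with the mean of the 10 genes. The members, the gene lists and the tests were chosen with earlier results of these data known. Gene coordinates were not used here, since no genome of the arrays' build was given. The design text names 3 biological replicates, whereas 1 array per diet and time point was analysed here.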

Additional observations from a re-analysis of the deposited data

Results flagged for a closer look

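Within the 10 HFC arrays, the W9 array stood far from the others for 3 genes by Dixon's test of the gap to the nearest array: Lipe at 3.21 (next highest 0.08), G0s2 at 3.42 (next highest 1.16) and Pnpla2 at 5.38, a saturated value and thus a lower bound (next highest 3.37). The test was run on 50 sets of values (10 genes in 5 diets), and chance gives about 1 in 20 such sets. The mean level of the fat cell markers on the same array was 5.03, partly a lower bound, beside 5.02 on HF75 W12 and 5.01 on LFC W9. The mean level of the macrophage markers on HFC W9 was 2.49.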

How the results depend on the processing

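For HFC against LFC, its change per week and the formulation doses, the count of probes and of the 10 genes past the threshold was 0 under every alternative run, the methods' t-test after Benjamini-Hochberg included; at an unadjusted p of 0.05 that test counted 1105 probes for HFC against LFC and 610, 325 and 221 for HF5, HF20 and HF75, where limma counted 2824, 1619, 540 and 684. By gene, the sign of HFC minus LFC turned for Fabp4 with array brightness as a covariate (0.053), and for Plin4 (0.14) and G0s2 (0.032) with the fat cell marker level as a covariate. The mean of the doses minus HFC had a median of −0.25 over the 10 genes, from −0.93 to 0.46. Its sign turned for Mgll with normexp (−0.30), quantile scaling (−0.089), brightness (−0.023), the mean of all probes (−0.057) and without the arrays of a 75th percentile under 100 (−0.0094). For Pnpla2 it turned with normexp (−0.33), quantile scaling (−0.069), the mean of all probes (−0.21) and without those dim arrays (−0.017). For Fabp4 it turned with quantile scaling (−0.0094) and brightness (−0.0079). For Lipe it turned with scan day as a block (0.29), the marker covariate (0.35) and without the 4 arrays of highest marker level (0.014), and for Plin4 under the same 3 (0.19, 0.41 and 0.095). For Aqp7 it turned with normexp (0.037), scan day (0.063), brightness (0.058), the marker covariate (0.58), without W9 and W12 (0.20) and without the dim arrays (0.00101). For G0s2 it turned with the marker covariate (0.025). Leaving out each week in turn gave −0.099 to 0.22 for Mgll, −0.28 to 0.45 for Pnpla2, −0.82 to 0.29 for Lipe, −0.31 to 0.20 for Plin4 and −0.32 to 0.19 for Aqp7.

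The week comparisons depended strongly on the processing. With normexp background correction the probes past the threshold were 1659 among the weeks, 0 at W3, 1956 at W6, 6 at W9, 0 at W12, 1192 at W15 and 31 at W18, against 13916, 2904, 9326, 1310, 6595, 1 and 111. With a filter requiring every array they were 4470, 904, 3433, 474, 616, 29 and 73, fewer probes being tested. Quantile scaling gave 138 at W9 and 0 at W15, no filter on dim probes 11245 at W12, brightness as a covariate 2137 at W9, 2 at W15 and 203 at W18, and the marker covariate 1394 at W3, 69 at W9, 4296 at W12 and 3 at W15. Without W9 and W12 the counts were 6674 at W3, 121 at W15 and 781 at W18, without the 4 arrays 63 at W15, and without the dim arrays 1930 at W3, 2608 at W9, 3626 at W12, 65 at W15 and 570 at W18. Leaving out each diet in turn gave 5721 to 12739 among the weeks, 394 to 1849 at W3, 5531 to 9668 at W6, 88 to 1790 at W9, 1099 to 7048 at W12, 0 to 19 at W15 and 31 to 88 at W18.

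Of the 10 genes, 0 passed among the weeks with normexp, without W9 and W12 and without the 4 arrays, and 2 with quantile scaling, the marker covariate and without the dim arrays; at W3 1 passed without W9 and W12; at W6 0 passed with normexp and 2 with quantile scaling, no filter, the marker covariate, without W9 and W12 and without the 4 arrays; at W9 0 passed with normexp, quantile scaling, no filter, the marker covariate and without the 4 arrays. Leaving out each diet gave 0 to 8 among the weeks, 0 to 3 at W6, 0 to 2 at W9 and 0 to 4 at W12. The cause of these shifts was not tested. Scan day as a block was not run for the weeks. Without the block of time points, which the pairing of LFC and HFC at a time rests on, and without diet in the week fit, the counts were 14648 among the weeks, 3342, 9561, 1474 and 6513 at W3 to W12, 1 at W15 and 155 at W18, and 0 for each diet comparison; 7 genes then passed among the weeks, and 3 at W6 and at W9. Leaving out W9 and W12, the 4 arrays, the dim arrays, or D6 and D10, and the third Fabp4 probe, were alternatives chosen after seeing the data. Signal over background limited only Lipe, on 1 array, and saturation limited Fabp4 on 34.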
